A study of Mus musculus with 6 samples.

Results

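The cycling stromal cells of the fracture callus are connective tissue cells of the healing bone, among them fibroblast-like, cartilage and bone-forming cells, that were caught while copying their DNA or dividing. They were chosen by their counts. A cell barcode was a member if it had at least 3000 UMIs (unique molecular identifiers, 1 per captured transcript) and at most 10% mitochondrial UMIs, at least 5 UMIs of Top2a, Mki67 and Ube2c together, at least 1% of its UMIs from Col1a1, Col1a2 and Col3a1, at most 1 UMI of Ptprc, at most 1 of Cdh5 and Pecam1 together, and fewer than 3 of Rgs5. Of 46944 barcodes, 30589 passed the limits on depth and mitochondrial UMIs, 3411 of these had the cell cycle UMIs, and 1073 of these had the collagen. Removing Ptprc-positive barcodes left 903, removing endothelial barcodes left 776, and removing Rgs5-positive barcodes left 734 members. Controls 1, 2 and 3 gave 49, 57 and 243 of them, and knockouts 1, 2 and 3 gave 65, 216 and 104. Stromal barcodes that met every other criterion and held 0 UMIs of the 3 cell cycle genes numbered 7367 and are called non-cycling stromal cells below.

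Calluses were taken from 12-week-old mice at 14 days after femoral fracture (14 dpf), and each of the 6 libraries was a separate 3′ single-cell library. The 3 control libraries came from Piezo1 f/f mice, whose sample labels give the genotype as wt. The 3 knockout libraries came from Piezo1 Col2a1 mice, which carry Col2a1CreERT2 and Piezo1 f/f; their labels write the deleted gene as Piezo3, so the genotypes of both groups follow the study's text. That text describes male mice and a course of tamoxifen in both groups, begun on day 5 and given daily for 5 days at 75 mg/kg. The Cre is driven by Col2a1, a cartilage gene, so deletion was aimed at cells that used Col2a1 around the time of tamoxifen, and not at every stromal cell.

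Dividing cells pass through a fixed order of steps. Replication origins are licensed by the MCM complex, D-type cyclins with CDK4 and CDK6 release the E2F factors, DNA and histones are made in S phase, and cyclin B with CDK1 drives mitosis, which ends when the anaphase-promoting complex marks mitotic proteins for breakdown. In a callus, periosteal progenitors and young chondrocytes divide to build the soft callus, while hypertrophic chondrocytes and osteocytes have left the cycle. The CDK inhibitor p57, encoded by Cdkn1c, is known for its part in the cell cycle exit of chondrocytes.

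The members were described with 2 markers of cycling cells that the rule did not count. Both peak in the same phases as the 3 genes of the rule, so they are no independent check of the label. Birc5, which encodes survivin of the chromosomal passenger complex, had a UMI in 671 of the 734 members (91.4%), and Cenpf, a kinetochore protein gene, in 587 (80%). Among non-cycling stromal cells the shares were 7.79% and 4.17%. The 64 members at the threshold of 5 cell cycle UMIs had Birc5 in 67.2% and Cenpf in 51.6%, and the 76 stromal cells just below it, at 4 UMIs, had them in 52.6% and 44.7%, so the threshold cut through a continuous range. These shares are pooled and were not thinned to an equal depth, and members were deeper than non-cycling cells. At 5 UMIs Birc5 was found in 0 of 3 cells of control 1 and 1 of 4 of knockout 1, the libraries with the deepest cells. It was found in 1 of 1 of control 2, 20 of 30 of control 3, 16 of 21 of knockout 2 and 5 of 5 of knockout 3. The fibrillar collagens made up a median of 4.14%, 3.73% and 5.13% of the UMIs of members in controls 1 to 3 and 5.09%, 4.12% and 3.19% in knockouts 1 to 3. In leukocytes, barcodes with at least 3 Ptprc UMIs, the median lay between 0.06% and 0.37%, yet 3.57% to 10.1% of them per library also passed 1%.

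Several libraries stood apart. In knockout 3 a UMI of Xist, which is made from the inactive X chromosome of female cells, was found in 102 of 104 members, and UMIs of the Y-linked genes Ddx3y, Eif2s3y, Kdm5d and Uty in 0. In the other libraries 49 of 49, 50 of 57, 193 of 243, 65 of 65 and 156 of 216 members carried a Y-linked UMI. The members of knockout 3 thus went against the described sex, and the main comparisons between the genotypes are also given without this library. Control 3 and knockout 1 stood apart by acute-phase and chemokine genes, described below. Doublet scores in the top share expected of their library were found in 0, 28 and 25 members of controls 1 to 3 and in 1, 34 and 13 of knockouts 1 to 3, which was 49.1% of the members of control 2. At least 10 UMIs of the macrophage genes C1qa, C1qb, C1qc and Lyz2 together were found in 1, 2 and 7 members of the controls and in 15, 69 and 13 of the knockouts. These are the cells with macrophage RNA below. A longer list of 10 macrophage genes summed to 130, 268 and 277 CPM (counts scaled to the same total in every library) in members of the controls. In those of the knockouts it summed to 167, 983 and 645 CPM. Lyz2 was the most abundant gene, and the list was at 13953 CPM in leukocytes of control 1. Neutrophil genes summed to 130, 969 and 471 CPM in the controls and 272, 7357 and 2383 CPM in the knockouts, and erythroid genes to 3253 CPM in control 2, where 3 members held at least 100 erythroid UMIs. Muscle progenitor markers were at 37.9 CPM in control 1, led by Myod1 and found at 3 or more UMIs in 2 members, and at 0 to 2.32 CPM elsewhere. Shares, programmes, phase and fold changes between the groups were also computed without doublets and without the cells with macrophage RNA, and the main values are given below; the part of the other lists was not tested. Pairs of libraries shared 4 to 36 barcodes, none of them between members of the pair.

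Genes of mitosis and genes of replication are known to be switched on by different promoter elements. Mitotic genes commonly carry CCAAT boxes, which bind NF-Y, and a cell cycle homology region (CHR), spelt TTTGAA or with its central base changed, TTCGAA, bound by the MuvB complexes with B-MYB and FOXM1 or as DREAM, whereas replication genes commonly carry E2F sites. Promoters of the genes below were read from RefSeq (GRCm38.p6). The bases just before each start site are given 5′ to 3′ on the gene's strand, in lower case. Capitals mark CCAAT, both CHR forms and 3 spellings of the E2F site (TTTCCCGC, TTTGGCGC, TTTCGCGC), searched on either strand. The capital AA that opens the Top2a sequence is the end of a TTTGAA match that begins before the printed bases. Top2a, Ube2c and Mki67 are shown because they chose the cells, Hmmr because it led the spindle genes, Birc5 because it held no match, and Mcm5, chosen after its values were seen, because it led the licensing genes.
Top2a (chr11:99024190-99024364, minus strand): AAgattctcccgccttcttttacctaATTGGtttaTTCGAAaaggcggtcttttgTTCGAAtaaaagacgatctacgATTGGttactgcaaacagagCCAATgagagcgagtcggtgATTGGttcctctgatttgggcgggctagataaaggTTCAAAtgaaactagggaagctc
Ube2c (chr2:164769754-164769928, plus strand): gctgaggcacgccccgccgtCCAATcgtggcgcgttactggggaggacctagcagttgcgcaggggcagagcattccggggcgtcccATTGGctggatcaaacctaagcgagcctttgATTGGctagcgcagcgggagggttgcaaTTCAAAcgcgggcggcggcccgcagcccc
Mki67 (chr7:135716380-135716554, minus strand): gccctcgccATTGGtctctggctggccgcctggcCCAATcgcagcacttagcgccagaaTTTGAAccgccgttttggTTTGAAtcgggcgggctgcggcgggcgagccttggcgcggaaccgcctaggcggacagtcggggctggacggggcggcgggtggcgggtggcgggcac
Hmmr (chr11:40733438-40733612, minus strand): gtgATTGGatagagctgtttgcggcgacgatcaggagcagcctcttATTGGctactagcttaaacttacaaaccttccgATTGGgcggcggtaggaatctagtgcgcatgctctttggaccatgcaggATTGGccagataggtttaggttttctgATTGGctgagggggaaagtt
Birc5 (chr11:117849062-117849236, plus strand): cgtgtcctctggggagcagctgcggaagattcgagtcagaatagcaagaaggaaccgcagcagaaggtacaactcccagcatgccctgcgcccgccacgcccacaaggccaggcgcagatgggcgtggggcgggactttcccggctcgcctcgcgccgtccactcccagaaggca
Mcm5 (chr8:75109334-75109508, plus strand): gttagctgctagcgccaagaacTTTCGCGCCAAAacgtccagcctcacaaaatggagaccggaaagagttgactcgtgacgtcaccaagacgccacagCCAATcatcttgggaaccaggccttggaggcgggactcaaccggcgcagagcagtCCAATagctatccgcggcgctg

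In the 300 bases from 250 before to 50 after the start site, Top2a held 6 CCAAT boxes and 4 CHR matches, Ube2c 6 and 1, Mki67 3 and 2, and Hmmr 5 and 1. Birc5 held none of the 6 motifs in this window. Mcm5 held 3 CCAAT boxes, no CHR match, and the forms TTTCGCGC and TTTGGCGC overlapping on opposite strands. Of the 71 genes in the mitosis lists (kinases, kinetochore, spindle and mitotic exit), 61 had a promoter in the table. CCAAT was present in 42 of these (68.9%), against 37.9% of the promoters of all 27025 genes, and a CHR form also in 42 (68.9%), against 19.4%. The replication lists matched 37 of 47 genes, and CCAAT was about as common there, in 22 promoters (59.5%). At least 2 boxes were found in 41.0% of the mitosis and 40.5% of the replication promoters, against 12.2% of all. The CHR forms were found in 8 of the replication promoters (21.6%), and 13 (35.1%) held one of the E2F forms, against 1.91% of all promoters and 3.28% of the mitosis promoters. The stromal programme genes, 42 of 55 matched, held CCAAT in 42.9%, a CHR form in 14.3% and an E2F form in 0. A match describes these letters and is no evidence of binding.

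Levels were next set beside those of non-cycling stromal cells of the same library. This is the contrast by which the cells were chosen, so the values are a description and carry no test. Log2 ratios were taken between TMM-scaled CPM with 1 CPM added to each, and the median over all 9234 genes with a mean of at least 10 CPM in either kind of cell was −0.09. Of these genes, 343 (3.71%) were at least 2 times higher in cycling cells in all 6 libraries and 21 (0.227%) at least 2 times lower. A gene of the cycle can reach 10 CPM through the cycling cells alone, so the counts below describe the genes that reached it and are not evidence that the cells cycled.

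The replication machinery was higher throughout. Of 17 origin licensing genes 16 reached 10 CPM, and these 16 were all at least 2 times higher in every library, with a median log2 ratio of 2.72. Mcm5, a subunit of the MCM helicase, was at 88.1, 60.1 and 70.7 CPM in members of controls 1 to 3 and 57.6, 69.9 and 82.4 CPM in knockouts 1 to 3, against 2.78 to 5.44 CPM in non-cycling cells (log2 ratio 3.79), and Orc6 of the origin recognition complex had the smallest ratio (1.61). Of 30 DNA synthesis genes, 29 were at least 2 times higher in every library, with a median of 2.80. Tk1, thymidine kinase, was highest among them at a log2 ratio of 4.82, with 75.1 to 94.1 CPM in members and 1.03 to 4.51 CPM in non-cycling cells. Pold3, a DNA polymerase delta subunit, had the lowest ratio, 1.11. Replication-dependent histones, whose transcripts mostly lack poly(A) tails and are captured in part by a 3′ assay, were higher for 11 of 13 genes with a median of 3.59. The linker histone gene Hist1h1b was highest (5.97) and Hist1h1c showed almost no difference (0.02).

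Mitotic genes, which peak in the same phases as the 3 genes that chose the cells, had larger ratios. Of 70 genes in the mitosis lists other than Ube2c, 66 (94.3%) were at least 2 times higher in all 6 libraries, with a median log2 ratio of 4.31, and for replication the corresponding values were 45 of 46 (97.8%) and 2.73. All 20 centromere and kinetochore genes were higher, from Hjurp, the CENP-A chaperone, at 1.58 to Cenpf at 6.51. Cenpf was at 414, 569 and 330 CPM in controls 1 to 3 and 383, 307 and 271 CPM in knockouts 1 to 3. Of 26 spindle and cytokinesis genes 25 were higher, from the tubulin gene Tubb5 (1.61) to Hmmr, a spindle assembly factor (6.31), which was at 160, 231 and 197 CPM in controls and 176, 149 and 126 CPM in knockouts. The mitotic kinases and checkpoint genes were higher for 14 of 15, from Wee1, which holds CDK1 inactive (0.95), to Pbk (5.61). Among 10 mitotic exit genes 8 were higher, Ube2c included, and Pttg1, the securin gene, stood at −0.15 with 14.5 to 35.7 CPM in members and 17.5 to 31.4 CPM in non-cycling cells. Ube2s, the partner of Ube2c, was at 391, 773, 356 and 680 CPM in the libraries of replicates 1 and 2 and at only 21.8 and 31.8 CPM in control 3 and knockout 3, the 2 libraries counted against another gene list; the part of that list in this gap was not tested. Of the chromatin genes 17 of 19 were higher, Top2a and Mki67 included, from Hmgb1 at 1.12 upward.

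**Figure D1:**
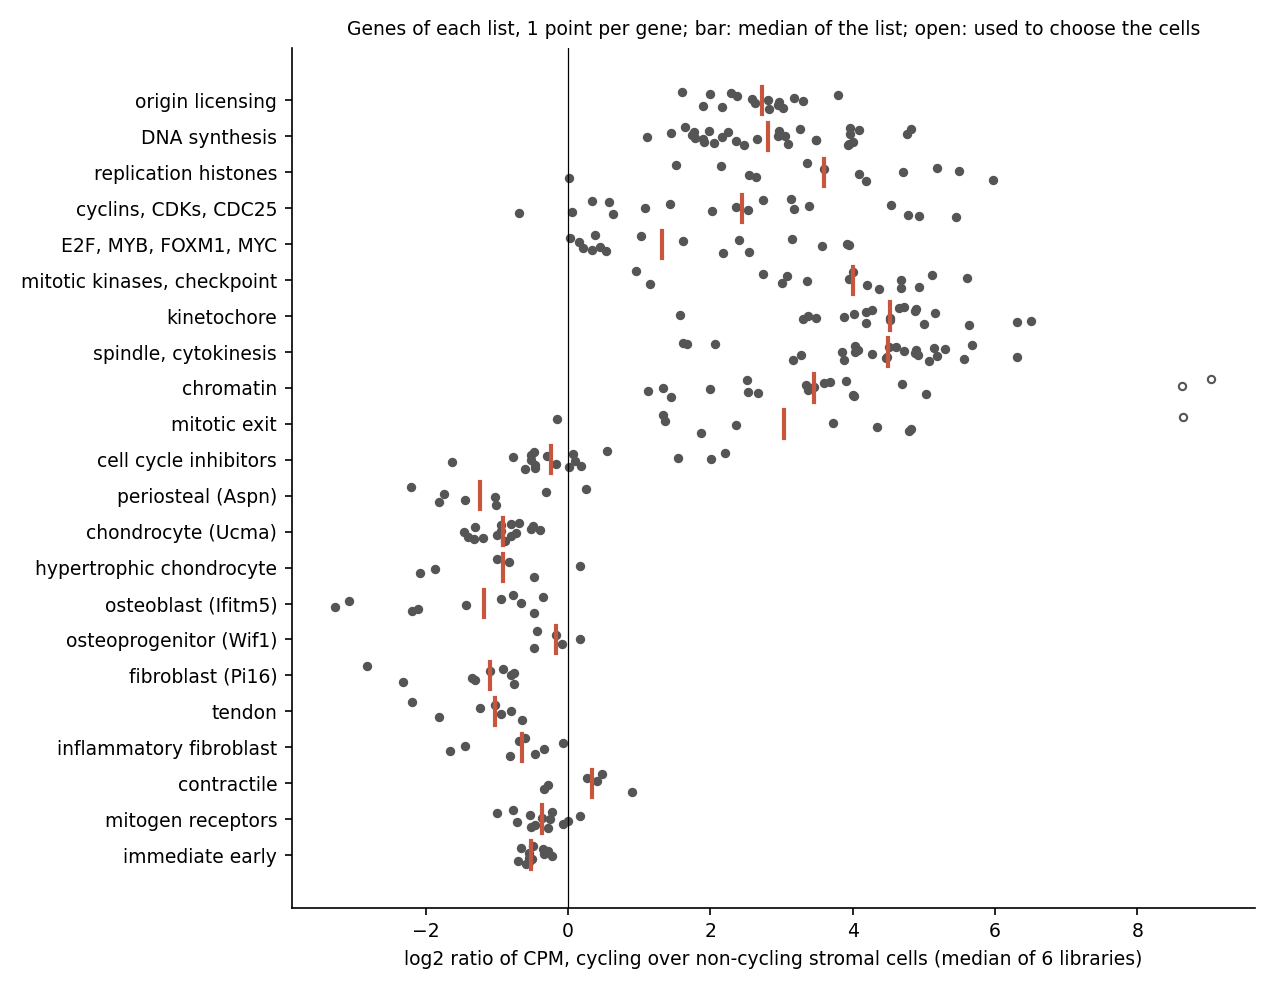
Log2 ratio of CPM in cycling over non-cycling stromal cells, as the median of 6 libraries, for each gene (point) of the lists on the vertical axis; red bars are list medians and open circles are the 3 genes that chose the cells. Replication lists centre near 2.7 to 3.6, kinetochore and spindle genes near 4.5, and most stromal lists to the left of 0.

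The genes that control entry into the cycle showed smaller ratios than its machinery. Among 18 cyclins, CDKs and activating phosphatases 12 were at least 2 times higher in all libraries (median 2.44), led by Ccna2, cyclin A2, at 5.45. The 3 D-type cyclins did not move alike. Ccnd1 was higher in cycling cells in 6 of 6 libraries (log2 ratio 0.64), Ccnd2 was lower in 6 of 6 (−0.69), and Ccnd3 stood at 0.05. Their kinases Cdk4 and Cdk6 had log2 ratios of 0.58, higher in 6 of 6 libraries, and 0.34, higher in 5. Of 16 cell cycle transcription factors that reached 10 CPM 8 were at least 2 times higher in all libraries, from Myc at 0.02 to E2f8, a repressor E2F, at 3.94.

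Among 18 inhibitors of the cycle the median log2 ratio was −0.23, and 3 were at least 2 times higher in every library. These were the pocket protein gene Rbl1, encoding p107 (2.21), Cdkn2c, encoding p18 (2.00), and Cdkn2d, encoding p19 (1.54). Cdkn1c had the lowest ratio of the list, −1.63, and was lower in 6 of 6 libraries. It was at 52.1, 120 and 20.4 CPM in cycling cells of controls 1 to 3 and 55.3, 19.6 and 82.1 CPM in knockouts 1 to 3, against 253, 177 and 54.4 CPM and 177, 43.1 and 255 CPM in the non-cycling cells. Cdkn1a (p21) stood at −0.47 and Cdkn1b (p27) at −0.17, both lower in 6 of 6 libraries, while Cdkn2a stood at 0.10 and its neighbour Cdkn2b at −0.52.

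Cycling leukocytes and endothelial cells, taken with the same cut on cell cycle UMIs, served as a comparison for these genes; collagen and lineage genes chose all 3 kinds, and no test was run. Ccna2 was at a median of 134 CPM in cycling stromal cells, 146 CPM in cycling leukocytes and 165 CPM in cycling endothelial cells, and Cdk1 at 185, 179 and 217 CPM. Cdkn2a was at a median of 45.1 CPM in cycling stromal cells (21.0 to 94.4 CPM over libraries), 25.5 CPM in cycling endothelial cells and 4.07 CPM in cycling leukocytes (at most 7.67 CPM), and Cdkn2b followed the same order at 23.1, 16.1 and 3.36 CPM. Cdkn1c was at 53.7 CPM in cycling stromal cells, 26.8 CPM in endothelial cells and 9.22 CPM in leukocytes. Ccnd1 was highest in cycling endothelial cells, at 357 CPM against 164 CPM in cycling stromal cells and 158 CPM in leukocytes. Cdk6 was highest in leukocytes, at 132 CPM against 70.1 CPM in stromal and 72.2 CPM in endothelial cells.

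**Figure D2:**
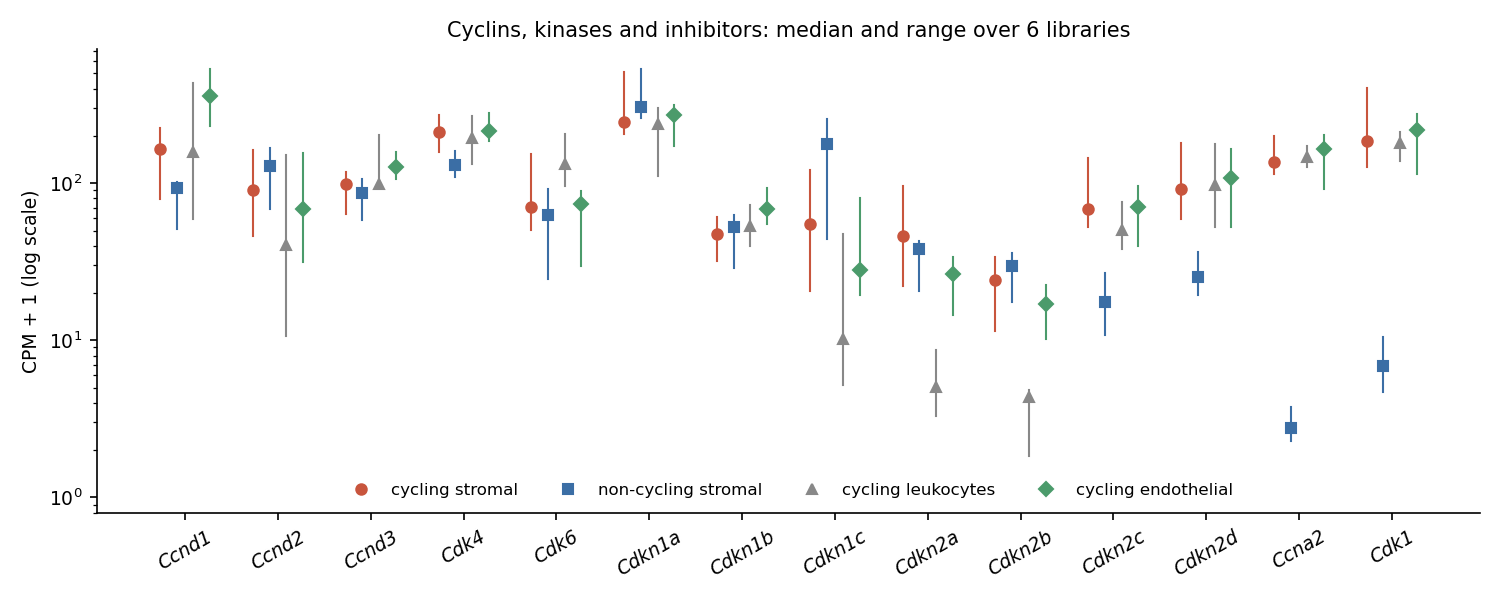
Level (CPM + 1, log axis) of D-type cyclins, their kinases, CDK inhibitors, Ccna2 and Cdk1 in 4 kinds of cell; symbols are medians and bars the range over 6 libraries. Cdkn1c lies lower in cycling than in non-cycling stromal cells, and Cdkn2a and Cdkn2b lie far lower in cycling leukocytes than in either stromal group.

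The phase within the cycle was described by comparing UMIs of 41 S phase genes with those of 49 G2 and M genes other than the 3 that chose the cells, after thinning each cell to 3000 UMIs. More S phase than G2 and M UMIs were found in 38.8%, 14% and 30.5% of members in controls 1 to 3 and in 18.5%, 20.8% and 38.5% in knockouts 1 to 3. The means were 27.8% ± 12.6 and 25.9% ± 10.9 (SD, n = 3 each), and the groups overlapped (two-sided exact permutation test over libraries, p = 0.9; the smallest p that 3 against 3 libraries allow is 0.1). Top2a, Mki67 and Ube2c peak in G2 and M, so the rule itself leaned towards these phases in both groups. Without doublets the share in control 2 rested on 29 cells and was 24.1% instead of 14%, and the difference between the means was −3.81 points instead of −1.84; it was −0.028 without cells with macrophage RNA and −8.11 without knockout 3 (exact permutation p = 0.8, 1.0 and 0.5).

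The stromal programme that a member carried was read from 5 genes: Aspn, a small leucine-rich proteoglycan of periosteal cells (chr13:49544443-49567565), Ucma, secreted by chondrocytes (chr2:4976122-4985748), Ifitm5 of mineralising osteoblasts (chr7:140948958-140950291), Wif1, a secreted Wnt inhibitor (chr10:121033960-121100650), and Pi16, which marks progenitor-like fibroblasts (chr17:29317680-29330593; all GRCm38). Cells were thinned to 3000 UMIs, so that depth was equal, and a gene was counted as carried at 1 UMI. Of all 734 members 325 carried Aspn, 145 Ifitm5, 139 Wif1, 73 Ucma and 5 Pi16, while 189 (25.7%) carried none of the 5. Counts pooled over libraries weigh the libraries with more members more, so the shares follow per library.

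Aspn was the most widely carried in 5 of 6 libraries. It was found in 65.3%, 61.4% and 56.4% of members in controls 1 to 3 and in 72.3%, 12.5% and 45.2% in knockouts 1 to 3, with knockout 2 far below the rest. Non-cycling stromal cells of the same libraries carried it in 67.0%, 66.4% and 62.4% and in 67.5%, 17.7% and 54.6%, and leukocytes, which should lack it, in 4.2% to 25.9%. The summed level of Aspn in members was 1513, 827 and 639 CPM in controls and 885, 106 and 454 CPM in knockouts. The periosteal list as a whole was lower in cycling cells: 0 of 8 genes were 2 times higher and 2 were 2 times lower in all libraries, with a median log2 ratio of −1.24. The smallest ratio was that of Sfrp2, a Wnt modulator (−2.20), and the largest that of Ptn, pleiotrophin (0.25).

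The cartilage programme varied between libraries. Ucma was carried by 24.5%, 43.9% and 6.6% of members in controls 1 to 3, and by 6.2%, 0% and 15.4% in knockouts 1 to 3; leukocytes reached 4.1%, 4.5% and 1.7% and 3.0%, 0% and 11.5%. In knockout 2 none of 216 members carried it, which allows a share of up to 1.39%, and the gene was at 0 of 4377986 UMIs there, where 3 UMIs would be 0.685 CPM. Its level was 281, 978 and 28.4 CPM in controls 1 to 3 and 44.2 and 262 CPM in knockouts 1 and 3. Col2a1 could not be used to assign cells, since a UMI of it was found in 99.5% and 85.8% of the leukocytes of controls 1 and 2 and in 97.5% and 99.6% of those of knockouts 1 and 3, nearly as often as in members (100%, 93.0%, 95.4% and 100%). In control 3 it was found in 44.2% of leukocytes and 44.0% of members. Knockout 2 differed, with 3.96% of leukocytes against 13.4% of members. Of 16 chondrocyte genes none was 2 times higher or lower in all libraries; the median log2 ratio was −0.92, from Comp (−1.46) to Matn1 (−0.40). Hypertrophic genes had a median of −0.91. Col10a1, the collagen of hypertrophic cartilage, had a log2 ratio of −2.09 and was at 855, 70.5 and 12.5 CPM in cycling cells of the controls and 861, 56.9 and 770 CPM in those of the knockouts, while Mmp13 stood at 0.17. After thinning, Col10a1 was carried by 97.7%, 88.0% and 90.1% of leukocytes in control 1, knockout 1 and knockout 3, where its level was high, and by 98.0%, 67.7% and 79.8% of members, so these levels are not read as made by the cycling cells.

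Of the bone-forming programmes, Ifitm5 was most widely carried in knockouts 2 and 3 and Wif1 in knockout 2. Ifitm5 was carried by 6.1%, 7.0% and 2.5% of members in controls 1 to 3 and by 0%, 50% and 23.1% in knockouts 1 to 3; 0 of 65 in knockout 1 allows a share of up to 4.62%. Non-cycling stromal cells carried it in 6.46%, 4.63% and 5.67% and in 3.23%, 60.6% and 13.7%, so the high share in knockout 2 was found in the whole stroma of that library. Leukocytes carried it in 0.7% to 3.3% of barcodes in 5 libraries and in 11.5% in knockout 2. Wif1 was carried by 20.4%, 17.5% and 6.2% and by 4.6%, 36.1% and 22.1%, against at most 3.3% of leukocytes in any library. For Wif1 the non-cycling shares were 11.2%, 12.3% and 16.1% in the controls and 6.90%, 30.4% and 16.6% in the knockouts, again highest in knockout 2. Both genes were found in 49 members, 35 of them in knockout 2. There 35 of 108 Ifitm5 carriers also carried Wif1, against 78 of all 216 members, so in that library carriers of Ifitm5 held Wif1 no more often than members at large. In knockout 3 these counts were 9 of 24 against 23 of 104. Of 10 osteoblast genes that reached 10 CPM, 2 were at least 2 times lower than in non-cycling cells in all libraries. These were Dmp1 and Phex, which act in mineralisation and phosphate handling of osteocytes, with log2 ratios of −3.27 and −3.08. Dmp1 was at 6.39, 5.53 and 4.51 CPM in cycling cells of the controls and 2.06, 69.4 and 42.1 CPM in those of the knockouts. Sp7, the osteoblast transcription factor osterix, had the ratio nearest to 0 in the list (−0.36), and the osteoprogenitor list, which holds Wif1, had a median of −0.18, from Kcnk2 (−0.49) to Mmp13 (0.17). Against non-cycling cells closer in depth to the members the osteoprogenitor median turned to 0.16, and without doublets it was −0.17. By library it was 0.68 in knockout 3 and −0.79 to −0.03 in the others.

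Pi16 was carried by 0%, 0% and 0.8% of members in the controls and by 3.1%, 0.5% and 0% in the knockouts. Leukocytes of the same libraries carried it in 5.8% to 10.3%, and non-cycling stromal cells in 0.80% to 6.18%. The share in members was thus no higher than in leukocytes and was not read as a programme. Whether the share in leukocytes is background RNA was not tested. Counts of 0 in control 1, control 2 and knockout 3 allow shares of up to 6.12%, 5.26% and 2.88%. Its list had a median log2 ratio of −1.10, from Pi16 at −2.83 to Cd34 at −0.77. Intervals and limits of this kind cover counting error only.

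**Figure D3:**
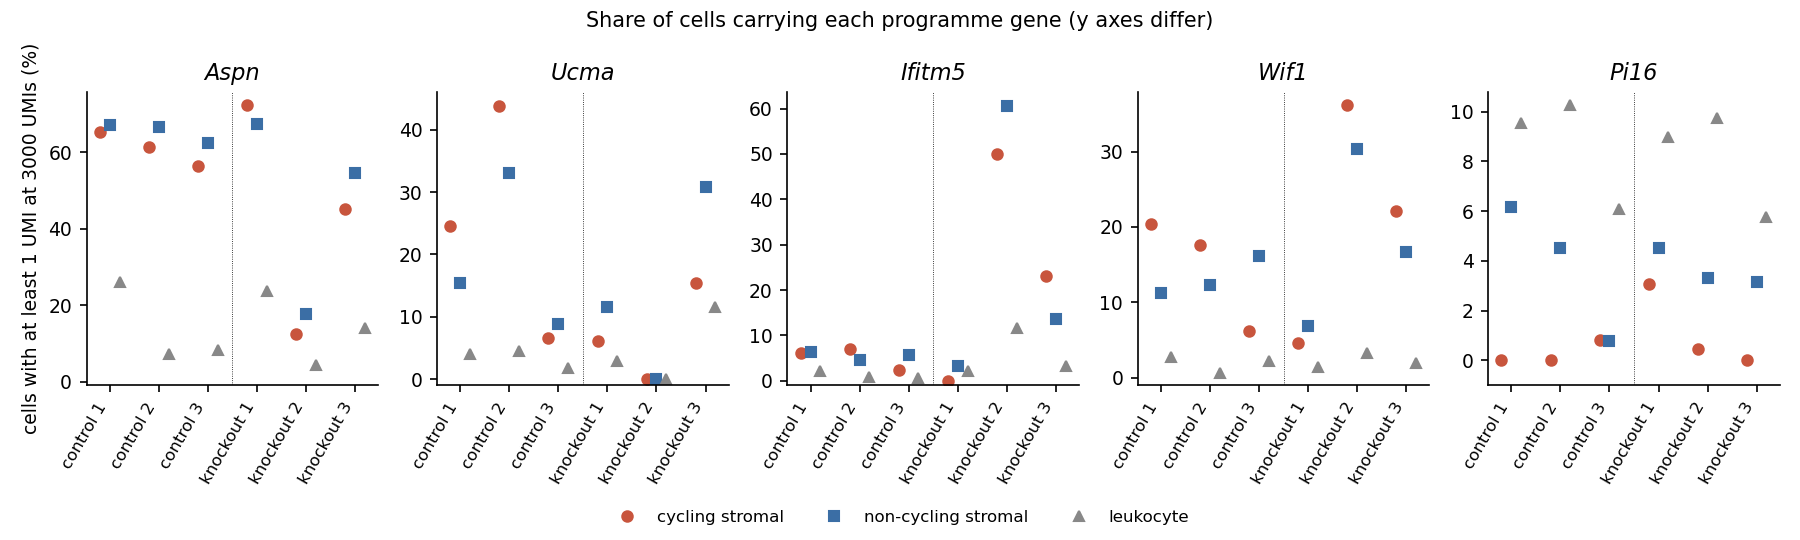
Percent of cells with at least 1 UMI of each programme gene after thinning to 3000 UMIs, per library, for cycling stromal cells, non-cycling stromal cells and leukocytes; the y axes differ between panels. Aspn in cycling cells lies close to the non-cycling cells of the same library, Ifitm5 reaches 50% in knockout 2, and Pi16 lies below the leukocytes in all 6 libraries.

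Control 3 and knockout 1 shared a set of inflammatory genes across the genotypes. Saa3, an acute-phase protein gene, was found, without thinning, in 221 of 243 members of control 3 (90.9%) and 63 of 65 of knockout 1 (96.9%), and in 3 members each of the other 4 libraries. Its level was 6021 and 2311 CPM in these 2 libraries and 1.11 to 2.76 CPM in the others. The chemokine gene Cxcl5 was at 591 and 1043 CPM there and at 0 to 2.28 CPM elsewhere, and Il6 at 49.4 and 105 CPM against 0.228 to 2.76 CPM. Non-cycling stromal cells showed the same split for Saa3, with 8486 and 3192 CPM in the 2 libraries and at most 22.5 CPM in the rest. The background was high, since after thinning 50.1% and 57.7% of leukocytes of these 2 libraries carried Saa3, against 63.1% and 49.4% of all stromal cells. By level it was at 141 and 1885 CPM in cycling leukocytes and 1620 and 935 CPM in cycling endothelial cells, below the members of both libraries, but in knockout 1 the leukocytes came near to them, and carriage there is not read as expression by each cell. Acta2, smooth muscle actin, was also highest in these libraries, at 1401 and 501 CPM in members against 124 to 202 CPM.

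Acta2 was the contractile gene with the highest ratio of cycling to non-cycling cells, 0.89, and was higher in 6 of 6 libraries. Its log2 ratio was 0.04, 0.60 and 0.46 in controls 1 to 3 and 2.21, 1.59 and 1.18 in knockouts 1 to 3, so every knockout lay above every control. The share of all genes whose ratios separated the groups in this way was not counted. The difference between the genotype effects in cycling and non-cycling cells was 1.26 ± 0.25 SE, with an unadjusted p of 0.000488 and an adjusted p of 0.71 over all genes (edgeR), and thus did not pass. In the same edgeR test 702 of 16009 genes (4.39%) were below an unadjusted 0.05. Without knockout 3 it was 1.49 (edgeR adjusted p = 0.338). In members alone the log2 fold change was −1.04 ± 0.96 SE, and in non-cycling cells −2.41, with control 3 far above the others in both; without control 3 that in members turned to 1.15, and without knockout 3 it was −0.78. Contractile genes as a list had a median of 0.33, down to Cthrc1 at −0.34. Tendon-like genes had a median of −1.03, with Tnxb lowest (−2.20) and Fmod highest (−0.64), and marrow stromal genes one of −0.02, between Cxcl12 (−0.51) and Lepr (0.32). The marrow stromal median turned to 0.11 against non-cycling cells closer in depth and to 0.04 without doublets. Inflammatory genes stood at −0.65 (Chil1 −1.66, Il6 −0.08). In control 3 and knockout 1, where this list summed to 8549 and 4835 CPM in members, its median was 0.25 and 0.80. In the other libraries, where it summed to 32.0 to 225 CPM, the median was −1.80 to −0.28. Receptors for mitogens, which include those of PDGF, FGF and IGF1, stood at −0.36, with Pth1r, the receptor of parathyroid hormone, at −1.0 and Pdgfrb at 0.16, and immediate early genes at −0.53, from Egr1 (−0.70) to Hspa1a (−0.23). None of the 52 genes of the 6 skeletal and fibroblast programmes that reached 10 CPM was 2 times higher in cycling cells in all libraries. Of these, 6 (11.5%) were 2 times lower in all libraries, against 0.227% of all 9234 genes. The median ratio was below 0 for 50 of them. How many of all genes lay below 0 was not counted, and the median over all genes was −0.09. Members were deeper than non-cycling cells in every library, and the part of depth in these counts was not tested.

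**Figure D4:**
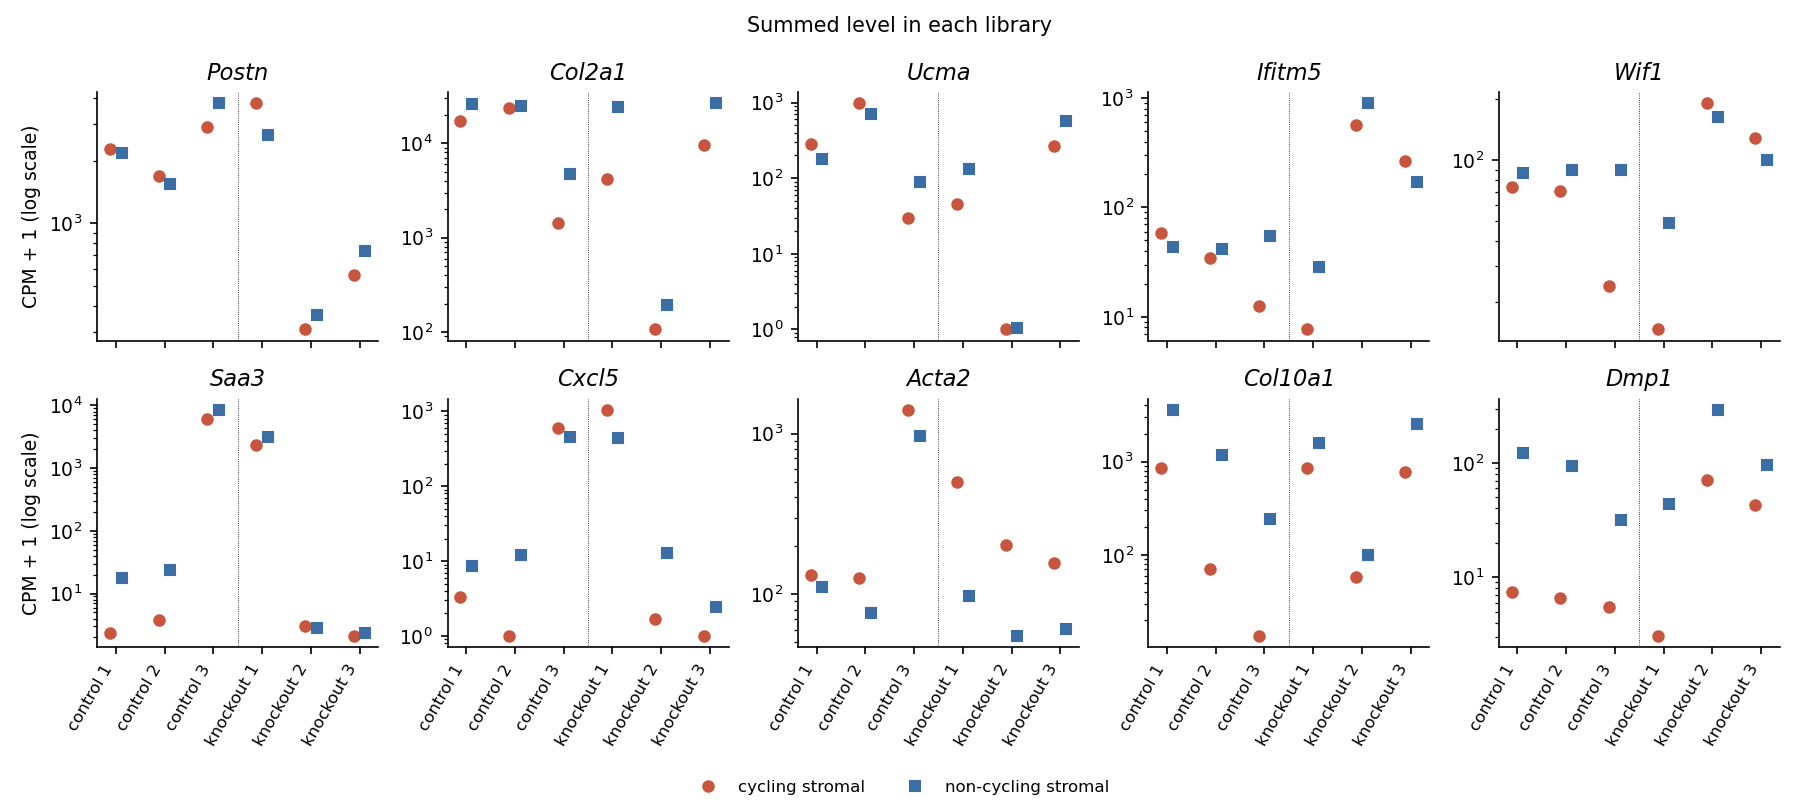
Summed level (CPM + 1, log axis; axes differ) of 10 genes in cycling and non-cycling stromal cells of each library. Saa3 and Cxcl5 are high in control 3 and knockout 1 alone, Ifitm5 and Dmp1 are highest in knockout 2, and Col10a1 and Dmp1 lie lower in cycling than in non-cycling cells of every library.

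The reverse question, what share of the carriers of a gene was cycling, was asked in cells thinned to 3000 UMIs, where a cell with at least 2 UMIs of the 3 cell cycle genes was counted as cycling. Of 2106 Acta2 carriers 166 were cycling. Per library, 4.61%, 4.17% and 8.46% of Acta2 carriers were cycling in controls 1 to 3 and 11.2%, 13.7% and 4.50% in knockouts 1 to 3, against 2.41%, 3.86% and 5.44% and 4.75%, 7.54% and 3.07% of stromal cells without an Acta2 UMI. The share was higher among carriers in 6 of 6 libraries, by a median of 2.61 percentage points. Acta2 carriers made up 7.40% to 46.7% of stromal cells, and a UMI of it was also found in 5.52% to 13.1% of leukocytes, so outside control 3 carriage was less than 2 times the share in leukocytes of the same library. Markers of pericytes and smooth muscle, the other cells known for Acta2, were also higher in members, at 94.1, 41.5 and 32.3 CPM in controls 1 to 3 and 21.9, 45.9 and 46.2 CPM in knockouts 1 to 3, against 62.5, 38.4 and 40 CPM and 21.1, 30.4 and 25.2 CPM in non-cycling cells. Their sum was thus higher in 5 of 6 libraries; its part in the Acta2 values was not tested, and Rgs5 was limited by the rule.

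Carriers of Dmp1 were by value cycling less often in every library with a cycling carrier, and counts were 0 in 2 libraries. Of 874 Dmp1 carriers 37 were cycling, which was 1.72%, 0% and 5.88% in controls 1 to 3 and 0%, 6.81% and 0.85% in knockouts 1 to 3, against 2.80%, 4.05% and 6.87% and 5.90%, 8.28% and 3.47% of stromal cells without Dmp1. The counts of 0 were 0 of 47 and 0 of 27 cells, which allow shares of up to 6.38% and 11.1%. Both limits lie above the share among cells without Dmp1, so these counts show no direction. Dmp1 was carried by 1.97% to 19.2% of stromal cells and 0.861% to 3.46% of leukocytes. Of 592 carriers of Ihh, which prehypertrophic chondrocytes make, 10 were cycling. The counts were 0 of 29 in control 3 and 0 of 8 in knockout 2, which allow up to 10.3% and 37.5% and show no direction, and of the other 4 libraries 3 had a lower share among carriers. Leukocytes carried Ihh in up to 9.09% of barcodes, against 0.338% to 13.8% of stromal cells. Carriers of Tnmd, tenomodulin (56 of 1748, with 0.112% to 7.27% in leukocytes), and of Aspn (244 of 5401, by a median of −0.61 points) were cycling less often in 5 of 6 libraries. Carriers of Wif1 were cycling more often in 4 of 6 libraries and those of Ucma and Ifitm5 in 2 of 6. These counts of libraries come without a test, since several genes were looked at and the cells of a library share its preparation.

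Outside the lists, the 10 genes with the largest ratios among genes of at least 50 CPM were led by Pclaf, the PCNA-associated factor, at 6.20, with 285 to 345 CPM in members and 2.19 to 6.43 CPM in non-cycling cells, followed by Aspm, a spindle pole protein gene (4.83), Mxd3 (4.66), Knstrn, encoding kinastrin (4.52), Diaph3, a formin gene (4.31), Arhgap11a (4.20), the noncoding RNA Lockd, which lies by Cdkn1b (4.18), Slfn9 (4.17), Cip2a (3.78) and Fam111a (2.92). The 10 genes with the smallest ratios were Angptl7 (−3.48), F13a1 (−2.41), Ccn3 (−2.24), Cilp2 (−2.12), Chad, chondroadherin (−1.95), Mfap4 (−1.94), Apod (−1.87), the Wnt antagonist Frzb (−1.84), Igf1 (−1.65) and Cilp (−1.61). Angptl7 was low in both kinds of cell in control 3 and knockout 2, at 0 and 0.685 CPM in members and 0.987 and 0.829 CPM in non-cycling cells.

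The share of stromal cells that were cycling overlapped between the genotypes when all 6 libraries were used. It was 4.78%, 4.44% and 9.39% in controls 1 to 3 and 8.18%, 9.12% and 4.03% in knockouts 1 to 3, with means of 6.20% ± 2.77 and 7.11% ± 2.71 (SD, n = 3 each; difference 0.904 percentage points, two-sided exact permutation test, p = 1.0). Of all barcodes past the limits on depth and mitochondrial UMIs the cycling stromal cells made up 2.29%, 0.891% and 3.55% and 3.96%, 2.90% and 1.70% (difference 0.609 points, exact permutation p = 0.6). Control 2 was the lowest and knockout 1 the highest on this measure. Without knockout 3 the differences were 2.44 and 1.19 points, each with an exact p of 0.4. Without doublets control 2 kept 29 of its 57 members and its share of stromal cells was 2.40%, against 4.83% and 9.14% in controls 1 and 3 and 8.12%, 8.21% and 3.65% in the knockouts. The differences were then 1.20 and 0.661 points, and they were −0.289 and 0.342 points without cells with macrophage RNA. Without both replicate 3 libraries, the ones counted against another gene list, the differences were 4.04 and 1.84 points, and both knockouts lay above both controls on either measure (exact permutation p = 0.333 each, the smallest that 2 against 2 libraries allow). At an equal depth of 3000 UMIs and a cut of 2 cell cycle UMIs, 2.74%, 3.90% and 6.85% of stromal cells were cycling in controls and 5.70%, 7.99% and 3.23% in knockouts. Depth differed much between libraries, with a median of 42822, 23819 and 19068 UMIs per member in controls and 57668, 19427 and 25535.5 in knockouts, and a deeper cell reaches 5 cell cycle UMIs more easily.

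**Figure D5:**
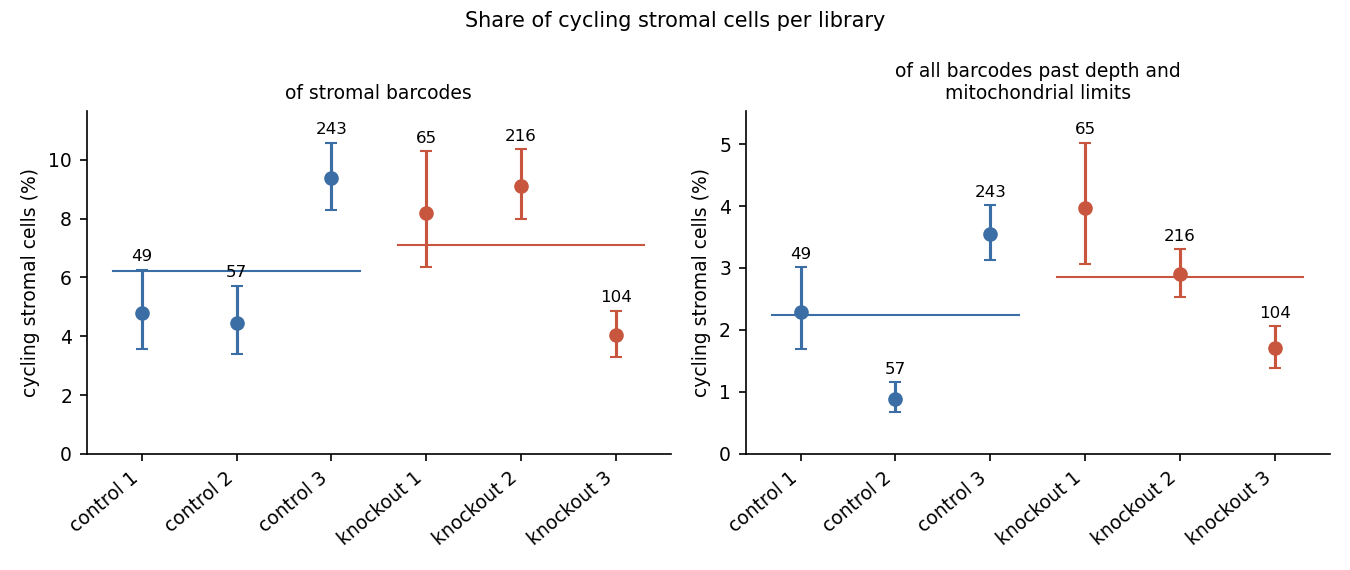
Share of cycling stromal cells per library, of stromal barcodes (left) and of all barcodes past the limits on depth and mitochondrial UMIs (right). Bars are 95% exact binomial (Clopper-Pearson) intervals for counting error, numbers are members, and lines are group means; the 2 groups overlap in both panels.

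The programmes carried by the members overlapped between the genotypes when all 6 libraries were used. With p-values adjusted over the 5 genes (Benjamini-Hochberg), the difference was largest for Ifitm5, carried by 5.20% ± 2.41 of members in controls and 24.4% ± 25 in knockouts (n = 3 each; exact permutation p = 0.4, adjusted p = 0.625), and Ucma, 25% ± 18.6 and 7.18% ± 7.74 (p = 0.2, exact, adjusted p = 0.625). For Aspn the shares were 61.0% ± 4.48 and 43.3% ± 29.9, for Wif1 14.7% ± 7.53 and 20.9% ± 15.8, and for Pi16 0.274% ± 0.475 and 1.18% ± 1.66 (adjusted p 0.625, 0.625 and 0.7 by the exact permutation test). The difference in Ucma was −17.8 points, −8.36 without control 2 and −14.2 without knockout 2. For Ifitm5, Aspn and Wif1 the differences leaned on knockout 2: without it that in Ifitm5 was 6.34 points instead of 19.2, that in Aspn −2.28 instead of −17.7, and that in Wif1 turned to −1.34. Knockout 1, 1 of the Saa3-high libraries, worked the other way. Without it the groups did not overlap for Aspn (−32.2 points), Ifitm5 (31.3) and Wif1 (14.4), each with an exact permutation p of 0.1, the smallest that 3 against 2 libraries allow, and without control 3 they did not overlap for Ucma (−27.0, exact p = 0.1). Without knockout 3 the differences were −18.6 for Aspn, −21.9 for Ucma, 19.8 for Ifitm5 and 5.65 for Wif1, without doublets −17.3, −21.4, 18.3 and 7.93, and without cells with macrophage RNA −19.9, −17.9, 17.8 and 8.09. Without both replicate 3 libraries that in Ucma was −31.1, with no overlap (exact p = 0.333, the smallest possible), and that in Wif1 1.39.

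Piezo1 itself, on chromosome 8 (chr8:122481698-122551329), showed no clear difference in members. It was at 48.4, 38 and 58.8 CPM in controls 1 to 3 and 72.5, 39.1 and 38.1 CPM in knockouts 1 to 3 (log2 fold change 0.01 ± 0.29 SE, adjusted p = 1.0 by edgeR's quasi-likelihood test). Knockouts 2 and 3 lay at the lowest control value, and the sign turned in 7 of 19 alternatives, among them the omission of knockout 1 (−0.26) and of doublets (−0.11), while without knockout 3 it was 0.13. A 3′ count does not show the loss of floxed exons elsewhere in the transcript, so it checks neither the deletion nor the labels. Apoe, the gene of apolipoprotein E that the study followed in hypertrophic chondrocytes, was at 82.7, 192 and 140 CPM in controls and 120, 335 and 260 CPM in knockouts (0.80 ± 0.51 SE, edgeR adjusted p = 1.0), and the groups overlapped. The fold change was 0.78 without cells with macrophage RNA, 1.20 without doublets and 0.71 without knockout 3, and it ranged from 0.44 without knockout 2 to 1.16 without knockout 1. After thinning, leukocytes carried Apoe more often than members in every library, in 58.1% to 78.0% against 24.5% to 50% of cells.

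Across all genes, counts of members were summed per library and compared with edgeR. Of 11842 genes tested, 0 (0.0%) passed an adjusted p of 0.05, and at an unadjusted p below 0.05 there were 270 genes (2.28%). Leaving out any 1 library, the Saa3-high control 3 and knockout 1 and the Xist-positive knockout 3 included, also gave 0 (edgeR). The number below an unadjusted 0.05 moved with single libraries, however, to 1747 of 11725 genes without knockout 1, 427 of 11857 without control 3 and 111 of 11845 without knockout 2, and was 254 of 12827 without knockout 3. DESeq2 also called 0, with 353 of 24366 genes below 0.05 unadjusted. In non-cycling stromal cells 0 of 16095 genes passed and 239 (1.48%) were below 0.05 unadjusted, and for the difference between the genotype effects in the 2 kinds of cell these were 0 of 16009 and 702 (4.39%). DESeq2, which gave an adjusted p to 2158 genes here, called 8 of them and had 384 genes below 0.05 unadjusted.

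By cell cycle list, 0 of 70 mitosis genes and 0 of 47 replication genes were below an unadjusted p of 0.05. Of the 70 mitosis genes 63 were lower in knockout libraries by sign, but the median log2 fold change was only −0.25, against 0.00 over all genes, and the genes of a list share the same cells. The median was −0.23 without knockout 3 and −0.06 without control 2, where 43 of 70 were lower. Without control 1 it was −0.43, with 66 of 70 lower and 3 below an unadjusted 0.05 (edgeR), against 242 of all 12734 genes. Without knockout 1 the median was −0.25 and 5 of 70 were below an unadjusted 0.05, against 1747 of all 11725 genes. Among the 182 cell cycle genes tested 4 were below an unadjusted p of 0.05 (edgeR), a share near the 2.28% over all genes. E2f8 was at 32.4, 42.8 and 33.5 CPM in controls and 21.9, 16.4 and 17.7 CPM in knockouts, every knockout below every control, as in 267 (2.25%) of the genes tested (log2 fold change −0.96 ± 0.24 SE, edgeR adjusted p = 1.0; −0.97 without knockout 3); the other 3 were Hist1h1e, Mybl1 and Tfdp2, all lower and named after their values were seen.

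By stromal list, all 16 chondrocyte genes had a negative fold change (median −1.54, 2 below an unadjusted p of 0.05) and 10 of 11 osteoblast genes a positive one (median 1.28, 2 below 0.05), and none passed after adjustment. Over all genes 2.28% were below 0.05. The chondrocyte list holds Col2a1, which leukocytes carried nearly as often as members in every library but knockout 2. The part of RNA from outside the cells in the sums and fold changes of this list was not tested. Hypertrophic genes had a positive fold change for 5 of 6 (median 0.74) and osteoprogenitor genes for 6 of 6 (0.95), with 0 below 0.05 in either list. The signs of the chondrocyte and osteoblast lists did not hold library by library. The chondrocyte list summed to 37823, 48975 and 5622 CPM in members of controls 1 to 3 and 10926, 1390 and 21548 CPM in knockouts 1 to 3, so control 3 lay below knockouts 1 and 3, and the osteoblast list to 6217, 9233 and 7356 CPM and 5053, 25685 and 19045 CPM, so knockout 1 lay below every control. Without knockout 3 the medians were −2.58 and 1.07. Without control 2 the chondrocyte median was −0.88 and without knockout 2 −1.03, while the osteoblast median was 0.59 without knockout 2, and without knockout 1, where 1747 genes were below an unadjusted 0.05, 10 of 11 osteoblast genes were. Markers of some other cells had the same sign as the osteoblast genes: the 3 osteoclast genes tested were higher (median 2.07), as were 7 of 7 neutrophil genes (2.93) and 9 of 9 macrophage genes (1.45). Endothelial genes were also higher, for 5 of 5 tested (0.73). Erythroid genes went the other way, with 4 of 4 lower (−2.12). Pericyte and smooth muscle markers split 2 and 2 (−0.33), and the 1 Schwann cell gene tested was lower (−1.02). The osteoclast list summed to 253, 299 and 429 CPM in members of the controls and 259, 651 and 928 CPM in those of the knockouts, so it was high in knockouts 2 and 3, as the osteoblast list was. Its part was not tested. Over omissions of 1 library the osteoclast median ranged from 1.38 (without knockout 3, 1 of 3 genes lower) to 2.96 (without control 3). The neutrophil median ranged from 1.47 (without knockout 2) to 3.64 (without control 2). For macrophage genes the range was 0.77 (without knockout 2) to 1.94 (without knockout 1). Of 6 tendon genes tested 5 were lower and 3 were below an unadjusted 0.05: Scx, Mkx and Fmod, the latter pair named after their values were seen. Scx, scleraxis, the transcription factor of tendon and of its attachment to bone, was at 53.9, 86.4 and 89.4 CPM in controls and 30.9, 20.1 and 28.8 CPM in knockouts (−1.55 ± 0.31 SE, edgeR adjusted p = 1.0), with no overlap between the groups. Without knockout 3 it was −1.66. Its fold change in non-cycling stromal cells was −1.58, and the difference between both kinds of cell was 0.02 ± 0.23 SE (edgeR adjusted p = 1.0), and 0.21 without knockout 3.

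Groups did not overlap for 398 genes higher (3.36%) and 267 lower (2.25%) in knockout members. None passed the threshold with the filter on low counts, and the 5 in each direction with the smallest p are given as such. Higher by value were Slc48a1, a heme transporter gene, at 28.3, 20.7 and 21.8 CPM in controls and 46.8, 40.7 and 38.8 CPM in knockouts (0.85 ± 0.20 SE), Mtss1 (1.41 ± 0.34), Irx5, a homeobox gene (1.94 ± 0.49), Fcgr3, a leukocyte Fc receptor (1.91 ± 0.49), and Dedd2 (1.41 ± 0.36). Fcgr3 was at 1.37 to 2.76 CPM in controls and 5.4 to 9.37 CPM in knockouts, and the macrophage list was higher by sign for 9 of 9 genes tested. Lower by value, beside Scx, were Slc14a1, a urea transporter gene, at 8.22, 12.4 and 3.92 CPM in controls and 0.257, 0.228 and 1.11 CPM in knockouts, Plxdc1 (−2.48 ± 0.56), Zfp185 (−2.11 ± 0.50) and 1190005I06Rik (−1.85 ± 0.44). Without knockout 3 the values of these 3 genes were −2.39, −1.93 and −2.07, and those of the 5 genes higher by value were 0.86, 1.5, 1.64, 1.81 and 1.35 in the order given. Fcgr3 stood at 2.39 without doublets and did not reach the filter on low counts without cells with macrophage RNA. Irx5 fell to 0.73 with a cut of 3 cell cycle UMIs, and with no filter on low counts it passed, at 1.95 and an adjusted p of 0.0435 (edgeR), as did Slc14a1. In the knockouts Slc14a1 rested on 1, 1 and 3 UMIs, so its level is given and no fold.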

How the data were processed

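Single-cell 3′ RNA libraries of callus cells in 3 control and 3 knockout libraries were analysed. The authors aligned reads to mouse GRCm38 and counted UMIs with Cell Ranger, version 6.1.1 in both libraries of replicate 1 and 6.1.2 in the rest, per the labels, and the deposited values are raw counts of filtered barcodes without normalization. Replicate 3 of both groups lists 55357 genes and the others 55450; the 52081 shared identifiers were used, which held 97.8% or more of the UMIs of each library (57626530 to 103784364 UMIs in all). Positions are those of GENCODE M21 on GRCm38.

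Members were chosen by the thresholds given at the start. Scrublet (scanpy 1.11.5) gave doublet scores, of which the highest 0.8% per 1000 barcodes were called; these cells were kept except in an alternative. UMIs of members were summed per library (1447178 to 5103137 UMIs) and tested by quasi-likelihood in edgeR 4.0.16 with TMM factors, its default filter on low counts and a Benjamini-Hochberg threshold of 0.05, the group being the factor; the difference between cycling and non-cycling cells used the library as a block. DESeq2 1.42.0 was an alternative. The edgeR step was tested on simulated data, where it recovered few of the smaller changes, so a count of 0 does not show that no gene differed. Standard errors of fold changes were derived from the F statistic. Shares were compared with two-sided exact permutation tests over 20 assignments of libraries. The study's text gives differing numbers of mice for this experiment, so what 1 library stands for is not settled, and p-values measure the spread between libraries, which may be technical.

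Named genes were the genes of the rule and its markers, 5 programme genes, Piezo1, Apoe, the members of each list with the highest and lowest ratio, D-type cyclins with their kinases and inhibitors, the 10 highest and 10 lowest ratios outside the lists at 50 CPM or more, and up to 5 genes a direction between the groups. The members and the lists were chosen with earlier results of these data known. The alternatives were other cuts on cell cycle UMIs, depth, collagen and mitochondrial UMIs, removal of doublets or of cells with macrophage RNA, omission of each library and of both replicate 3 libraries, thinning to 3000 UMIs, RLE size factors, no filter on low counts and a replicate block. List medians were also taken against non-cycling cells closer in depth to the members.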

Additional observations from a re-analysis of the deposited data

Results flagged for a closer look

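Ccng1, encoding cyclin G1, a target of p53, was the 1 gene among those searched whose ratio of cycling to non-cycling stromal cells lay on opposite sides of 0 in the groups. The log2 ratio was −0.22, −0.27 and −0.04 in controls 1 to 3 and 0.54, 0.13 and 0.07 in knockouts 1 to 3, and the medians differed by 0.34. The difference itself, tested as an interaction across all genes with edgeR, was 0.38 ± 0.17 SE with an unadjusted p of 0.0434 and an adjusted p of 1.0. It was 0.46 without knockout 3 and 0.21 without knockout 1. In members the gene was at 52.5, 46.3 and 93.5 CPM in controls and 105, 53.2 and 45.1 CPM in knockouts, which overlap. Ccng1 was found by searching the cell cycle lists other than the replication histones, the inhibitors, the mitogen receptors and genes named singly. Lists of stromal programmes were not searched. The same edgeR test gave an unadjusted p below 0.05 for 702 of 16009 genes (4.39%), so Ccng1 is not read as a result about the lists.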

How the results depend on the processing

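The signs of the differences in the share of cycling cells, in Wif1 and Pi16 carriers and in the phase balance depended on single libraries. Those in Aspn, Ucma and Ifitm5 carriers did not turn in any alternative, though their sizes moved. With 3 libraries a group or fewer the exact tests cannot go below 0.1, so these alternatives show directions and sizes only. The difference (knockout minus control, percentage points) in the share of all barcodes ranged from −0.067 (without control 2) to 1.26 when a library was left out, and that in the share of stromal cells from −0.100 (without knockout 2) to 2.5; it was −0.289 when cells with macrophage RNA were removed. Over the same omissions Aspn ranged from −32.2 (without knockout 1) to −2.28, Ucma from −27.0 (without control 3) to −8.36, Ifitm5 from 6.34 to 31.3 (without knockout 1), Wif1 from −1.34 (without knockout 2) to 14.4 (without knockout 1) and Pi16 from −0.043 (without knockout 1) to 1.5. The balance of S over G2 and M ranged from −8.70 to 3.67, turning positive without control 1 (3.67), knockout 1 (1.89) or knockout 2 (0.707), and was 2.5 with a cut of 3 cell cycle UMIs. Without both replicate 3 libraries the differences were 1.84 points for all barcodes, 4.04 for stromal cells, −31.1 for Ucma, 1.39 for Wif1 and −6.76 for the balance. With at least 3% collagen they were 0.121, 0.101 and, for the balance, −8.36, and at most 5% mitochondrial UMIs gave 0.391, 0.469 and −0.878. A cut of 3 cell cycle UMIs gave 1.55 for stromal cells and 3.20 for Wif1, and thinning with a cut of 3 gave 0.362 and 0.438 for all barcodes and stromal cells. Unthinned, Wif1 stood at 16.4 and Ifitm5 at 31.2, and Wif1 counted at 2 or more UMIs at 1.05. Of 135 alternatives of these shares 9 turned the sign, and Pi16 at 2 or more UMIs, found in 0 members, had none. The replicate block is among the 135, though it cannot change a difference of means. Apoe stood at 1.34 with at least 3% collagen, and Irx5 at 0.73 with a cut of 3 cell cycle UMIs. With no filter on low counts, which tests more genes, 10 genes passed between the groups (3 higher, 7 lower), among them Irx5 (log2 fold change 1.95, adjusted p = 0.0435 by edgeR) and Slc14a1 (adjusted p = 0.0464 by edgeR, on few UMIs), and 190 passed for the difference between cycling and non-cycling cells. The latter count was 8 with DESeq2 and ranged from 0 to 6 when a library was left out, with 3 without control 3 and 6 without knockout 1; the cause was not tested. The Piezo1 fold change was −0.025 and −0.034 with cuts of 3 and 8 cell cycle UMIs, −0.023 at most 5% mitochondrial UMIs and −0.111 without doublets, and was 0.35 without both replicate 3 libraries, and ranged from −0.257 (without knockout 1) to 0.229, being −0.055 without control 1 and −0.099 without control 2. Without doublets the median log2 ratio of the cycle's transcription factors was 1.23 and that of the S phase list 2.88. The groups share replicate numbers, but the deviations of same-numbered libraries correlated at 0.18, −0.0063 and −0.16 over 11842 genes, so the numbers were not taken as pairs, and control 2 correlated best with knockout 3 (0.33). With a replicate block 0 genes passed and 330 were below an unadjusted p of 0.05 (edgeR). The differences in shares, 0.609 and 0.904 points for all barcodes and for stromal cells, are by arithmetic the same with and without it. Replicate 1 libraries had the deepest cells, and sums of members in control 2 rest on 57 cells, where 3 UMIs are 2.07 CPM; lower levels were not resolved there.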
